A study of Mus musculus with 13 samples.

Results

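The 40 genes described here encode proteins of mesangial cells, of pericytes and of the smooth muscle contractile apparatus. They were taken by symbol from the deposited table of counts per gene, which holds 46958 genes, and all 40 were present. By role they comprise 16 genes of mesangial identity and signalling, 9 pericyte genes and 15 genes of the contractile apparatus. A filter on low counts kept 16738 genes of the table and 39 of the 40, the exception being Actg2.

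RNA was sequenced from glomeruli, the filtering capillary tufts of the kidney, that had been isolated with beads. The mice were 6 months old, on a mixed C57/BL6x129/SVxBALB/c background. In light chain deposition disease (LCDD), antibody light chains made by a single clone of plasma cells build up in kidney tissue, and the study asks what such free light chains do to glomeruli. The 13 libraries belong to the genotype labelled kFRA (LCDD), with 4 libraries, the genotype labelled DH-LMP2A, with 4, and wild type (WT), with 5. All LCDD and DH-LMP2A libraries and WT replicates 1 and 2 were pools of 3 mice, and WT replicates 3, 4 and 5 were single mice. DH-LMP2A is known as a line in which the LMP2A protein of Epstein-Barr virus is made from the heavy chain locus of B cells. The labels do not describe this allele, do not say whether LCDD mice carry it as well, and name no promoter for the light chain. No treatment is named for any group. Age, mixed strain background and purification are given alike for all 3, which does not show that the groups are genetically alike.

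Mesangial cells sit between the capillary loops of the glomerulus, hold the loops together, make matrix and can contract. They are specialised pericytes, the cells that wrap capillaries elsewhere, and they share much of their contractile machinery with the smooth muscle cells of the arterioles that enter and leave the glomerulus. In mature vessels the smooth muscle myosin heavy chain, calponin and leiomodin are typical of arteriolar muscle, and the afferent arteriole also carries the renin cells of the juxtaglomerular apparatus. Purified glomeruli can keep a stump of these arterioles, so a bulk library reads mesangial and arteriolar cells together. In such bulk libraries, fewer cells of a type and less RNA per cell cannot be told apart.

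Total counts ran from 16687509 to 30587890 per library. Levels are given as CPM, counts relative to the TMM-scaled library total, and 3 counts, the floor for a detectable level, correspond to 0.0981 to 0.180 CPM, which covers counting error only. LCDD replicate 1 held the least podocyte RNA, with a sum of 7214 CPM over 10 podocyte markers, and LCDD replicate 2 followed with 13346. The other 11 libraries ranged up to 35075 CPM. Sums over 4 Y-linked genes were 18.0 to 220 CPM in LCDD, 68.3 to 223 in DH-LMP2A and 0 to 27.0 in WT. Comparisons with WT thus also compare libraries of different sex composition, which the labels do not give. LCDD and DH-LMP2A libraries of the same replicate number differed in these sums too. LCDD had 174, 21.1, 220 and 18.0 CPM in replicates 1 to 4, and DH-LMP2A had 111, 223, 68.3 and 126. Xist, the X inactivation gene, had 98.8, 510, 0.485 and 1000 CPM in LCDD and 102, 38.0, 1001 and 786 in DH-LMP2A.

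Per kilobase of exon, the members ranged from abundant transcripts of secreted proteins to genes near the limit of detection. Igfbp5, a secreted binder of insulin-like growth factors, had the highest level in WT, 966 CPM per kilobase ± 153 (SD, n = 5). Myl9, the regulatory myosin light chain of smooth muscle and non-muscle cells, followed at 299.9 ± 37.0 (SD, n = 5), and Sfrp2, a secreted modulator of Wnt signals, at 265 ± 48.9 (SD, n = 5). Itga8, the alpha 8 integrin chain that marks mesangial cells in the glomerulus, came next at 182 ± 34.2 CPM per kilobase (SD, n = 5). Myl9 and Sfrp2 did not differ beyond their spread.

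Acta2, Myh11 and Cnn1 lay lower than Igfbp5, Myl9, Sfrp2 and Itga8 on the same scale, but level did not separate the roles. In WT the contractile member Mylk stood at 115 ± 26.4 CPM per kilobase and the mesangial member Gata3 at 36.8 ± 5.37 (SD, n = 5 each). In WT, Acta2, smooth muscle alpha-actin, stood at 46.6 ± 10.4 CPM per kilobase (SD, n = 5). Myh11, the smooth muscle myosin heavy chain, stood at 14.1 ± 5.10 (SD, n = 5), and Cnn1, calponin, at 0.459 ± 0.226 (SD, n = 5). The defining mesangial markers Itga8, Gata3 and Des were detected well above the floor in all 13 libraries. Actg2, enteric smooth muscle actin, had 0 counts in 10 of the 13 libraries and at most 2 counts in any, which is under the floor, and it was not tested.

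**Figure D1:**
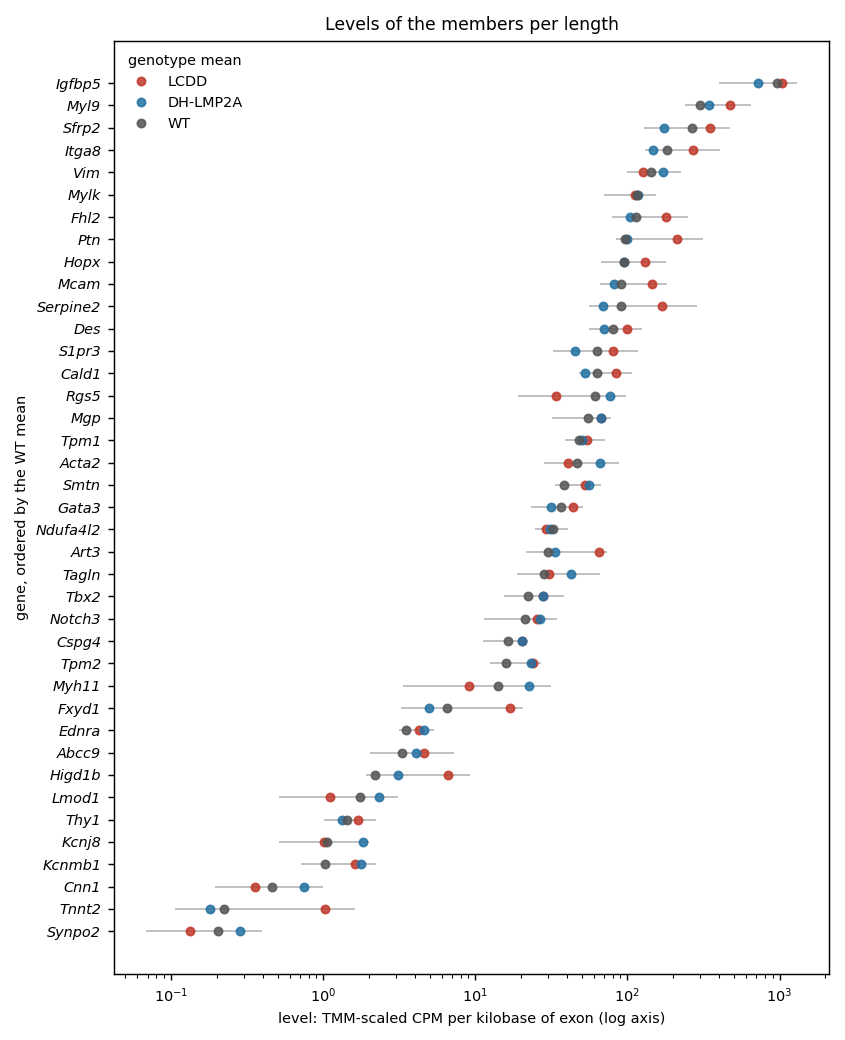
Level of each of the 39 tested genes in TMM-scaled CPM per kilobase of exon, on a log axis, ordered by the WT mean. Points are genotype means and grey lines run from the lowest to the highest of the 13 libraries; Igfbp5 tops the order at 966 in WT and Synpo2 closes it at 0.203.

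Promoter sequence was available for 32 of the 40 members, with no entry for Actg2, Higd1b, Tagln, Ndufa4l2, Thy1, Mgp, Myh11 or Tbx2. Windows from 250 bases before to 50 bases after a start site were searched on both strands. The motifs were the CArG box, to which serum response factor binds in muscle genes, and the M-CAT motif CATTCC, to which TEAD factors bind. The CArG box was searched only as CCWWWWWWGG, W being A or T. Forms with a changed base, such as ccctatatgg in the Acta2 window, were not counted, so a gene without a match may still hold a CArG-like element. The Notch effector RBPJ was searched as TGGGAA. A CArG box of this exact form was present in the windows of 3 of 32 members, Fhl2, Hopx and Myl9, against 1.81% of 27025 genes with a window. M-CAT was present in 10 of 32 members, 7 of them contractile genes, against 16.6% of genes. TGGGAA was present in 10 of 32 members, against 28.3% of genes. A match of TGGGAA on the opposite strand can overlap CATTCC, so the M-CAT and RBPJ counts are not separate measurements. These matches are descriptions of letters and not of binding. The windows below are the 250 bases before the start, from RefSeq on GRCm38.p6, 5′ to 3′ on the gene's strand, with the motif in capitals. Myl9, the contractile member with a CArG box, is shown with Fhl2, a mesangial member with one. Hopx, also mesangial, and another start site of Fhl2 hold a CArG box too and are not shown. The other sequences are those of Tnnt2 and Acta2, M-CAT-bearing members whose values lay in opposite directions from DH-LMP2A. Acta2 holds the motif as its reverse complement.
Myl9, chr2:156775214-156775463, plus strand: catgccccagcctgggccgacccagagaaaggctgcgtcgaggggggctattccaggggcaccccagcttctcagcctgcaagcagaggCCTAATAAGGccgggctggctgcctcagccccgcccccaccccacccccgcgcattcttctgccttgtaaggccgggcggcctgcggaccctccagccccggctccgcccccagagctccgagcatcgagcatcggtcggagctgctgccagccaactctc
Fhl2, chr1:43196762-43197011, minus strand: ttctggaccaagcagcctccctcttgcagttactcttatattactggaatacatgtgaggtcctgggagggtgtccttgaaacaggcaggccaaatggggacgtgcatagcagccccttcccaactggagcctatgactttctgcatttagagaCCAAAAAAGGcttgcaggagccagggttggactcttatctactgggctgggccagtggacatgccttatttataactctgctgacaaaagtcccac
Tnnt2, chr1:135836084-135836333, plus strand: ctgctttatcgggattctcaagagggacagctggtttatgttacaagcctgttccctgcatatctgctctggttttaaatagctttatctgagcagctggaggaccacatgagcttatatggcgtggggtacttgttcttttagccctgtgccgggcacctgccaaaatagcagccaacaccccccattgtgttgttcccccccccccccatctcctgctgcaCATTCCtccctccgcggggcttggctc
Acta2, chr19:34255374-34255623, minus strand: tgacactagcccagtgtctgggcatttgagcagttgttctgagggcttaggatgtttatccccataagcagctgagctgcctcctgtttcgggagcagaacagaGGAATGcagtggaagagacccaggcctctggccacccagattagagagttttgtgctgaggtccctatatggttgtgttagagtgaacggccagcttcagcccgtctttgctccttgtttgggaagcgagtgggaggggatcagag

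LCDD was compared with DH-LMP2A, the pair of genotypes present under each of the 4 title codes, a 6-digit number in the sample titles that libraries of different genotypes share. Ptn, Serpine2, Art3, Sfrp2, Fxyd1 and Tnnt2 were higher in LCDD, by 1.96-fold (Art3) to 5.71-fold (Tnnt2). Several contractile genes, such as Myh11 and Acta2, had lower means. The edgeR quasi-likelihood test, adjusted over all genes tested, called 6 of 39 members at an adjusted p under 0.05, against 2.00% of all genes tested. All 6 were higher in LCDD, against 1.30% of all genes, and 0 were lower, against 0.693%. The 6 were 4 of 16 mesangial genes (Ptn, Serpine2, Art3 and Sfrp2), 1 of 9 pericyte genes (Fxyd1) and 1 of 14 contractile genes (Tnnt2). A further count, of members with an unadjusted p under 0.05, gave 23 of 39, against 2193 of all 16738 genes tested.

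With the title code as a block, 12 members were called higher and 2 lower, against 3.24% and 2.86% of all genes and 6.10% in either direction. The block added Itga8, Fhl2, S1pr3, Mcam, Higd1b and Cald1 as higher and Rgs5 and Myh11 as lower. The median log2 fold change was 0.53 over the mesangial genes, 0.02 over the pericyte genes and -0.10 over the contractile genes, against -0.01 over all genes tested. Log2 fold changes were above 0 for 12 of 16 mesangial, 5 of 9 pericyte and 5 of 14 contractile genes. Libraries of LCDD and DH-LMP2A did not overlap for 10 members, against 7.62% of all genes. Of these, 9 were higher, against 4.74%, and 1 was lower, against 2.89%.

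**Figure D2:**
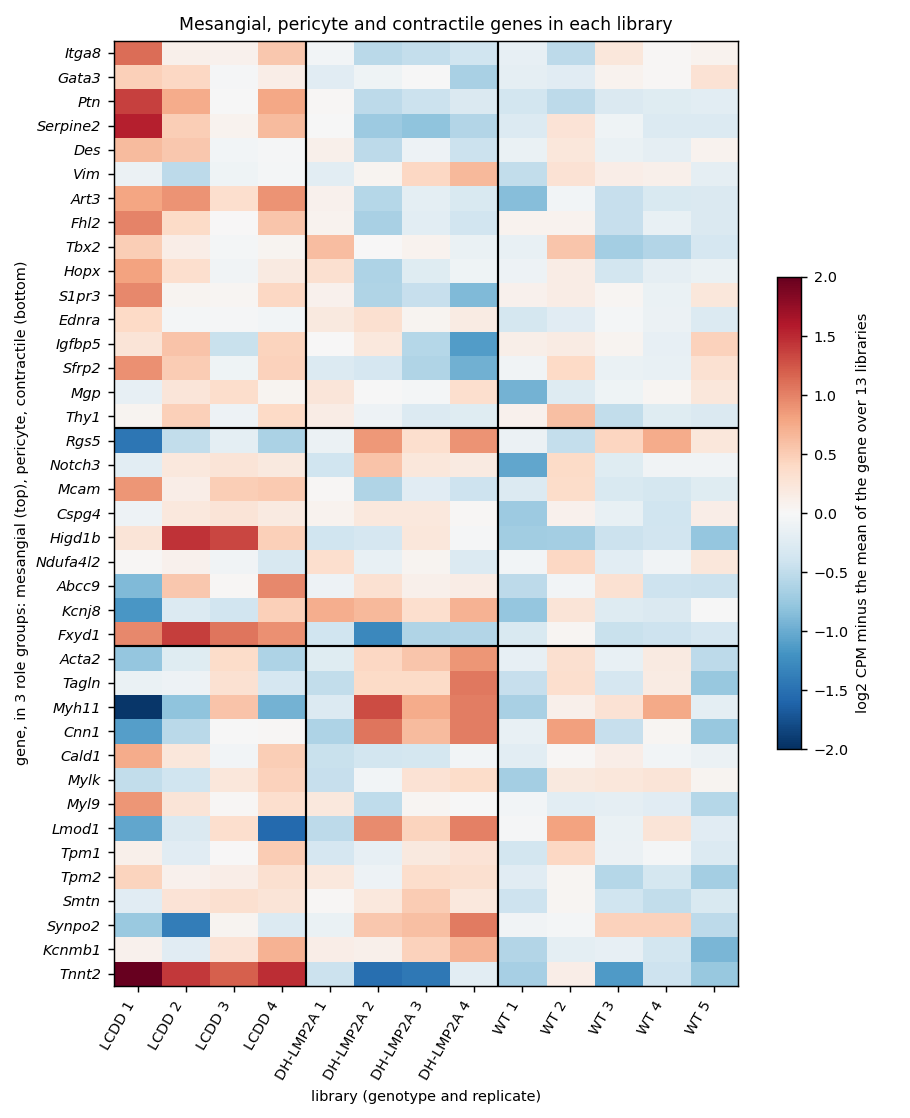
Log2 CPM of the 39 tested genes minus the gene's mean over the 13 libraries, with genes in role groups (rows) and libraries by genotype (columns). Tnnt2 and Fxyd1 are above their mean in all 4 LCDD libraries, and Rgs5 and Myh11 are lowest in LCDD replicate 1.

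Among the mesangial signals, Ptn (chromosome 6, 36714929 to 36810220, GRCm38), which encodes the heparin-binding growth factor pleiotrophin, rose in LCDD. It had 1074, 699, 414 and 715 CPM in LCDD replicates 1 to 4. In DH-LMP2A the values were 426, 289, 309 and 340 CPM. LCDD replicate 3 lay just under DH-LMP2A replicate 1, and the other 3 LCDD libraries stood above every DH-LMP2A library. LCDD was higher under 4 of 4 codes, 2.13-fold, or 1.09 ± 0.23 on the log2 scale (SE, edgeR adjusted p = 0.0334).

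Serpine2 (chromosome 1, 79794197 to 79861180), a secreted inhibitor of thrombin and plasminogen activators, also rose. Its levels were 2368, 1139, 844 and 1256 CPM in LCDD and 803, 490, 465 and 538 CPM in DH-LMP2A. The groups did not overlap, and LCDD replicate 1 was the highest by a wide margin. On the log2 scale the difference was 1.29 ± 0.30 (SE, edgeR adjusted p = 0.0446). Art3 (chromosome 5, 92331827 to 92414628), an ADP-ribosyltransferase family member, had 264, 287, 194 and 286 CPM in LCDD and 162, 103, 134 and 124 CPM in DH-LMP2A. All LCDD libraries exceeded all DH-LMP2A libraries, and the log2 fold change was 0.97 ± 0.19 (SE, edgeR adjusted p = 0.0196).

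Sfrp2 (chromosome 3, 83766321 to 83774316) had 1011, 766, 508 and 743 CPM in LCDD and 447, 428, 356 and 278 CPM in DH-LMP2A. Here too the groups did not overlap, and Sfrp2 rose by 1.01 ± 0.23 on the log2 scale (SE, edgeR adjusted p = 0.0395). These 4 calls rested on the full set of libraries. Leaving out any of LCDD replicates 1, 2 or 4 or DH-LMP2A replicates 2, 3 or 4 ended each of them, with log2 fold changes of 0.84 to 1.35 and edgeR adjusted p of 0.0502 to 0.157. Without LCDD replicate 1, the log2 fold change of Serpine2 was 0.91 and that of Ptn 0.84. Serpine2 and Sfrp2 also lost their calls without the low-count filter and at a mean of at least 5 CPM. There the edgeR adjusted p was 0.0518 to 0.0525. In a fit of LCDD and DH-LMP2A alone, Ptn, Serpine2 and Sfrp2 were not called (edgeR adjusted p = 0.119, 0.130 and 0.102), and Art3 was.

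The mesangial identity genes Itga8, Gata3 and Des were not called by edgeR without the block, and DESeq2 without the block called Itga8. Itga8 (chromosome 2, 12106632 to 12301922) had 3008, 1498, 1471 and 2016 CPM in LCDD and 1340, 961, 1001 and 1056 CPM in DH-LMP2A. The groups did not overlap, yet the log2 fold change of 0.88 ± 0.25 (SE) had an edgeR adjusted p of 0.102, and of 0.0216 with the block (log2 fold change 0.83). Gata3 (chromosome 2, 9857078 to 9890034), a transcription factor of mesangial cells, had 202, 194, 143 and 159 CPM in LCDD and 124, 137, 144 and 92.9 CPM in DH-LMP2A. The groups overlapped by 1 library each, and the log2 fold change was 0.49 ± 0.16 (SE, edgeR adjusted p = 0.180).

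Des (chromosome 1, 75360329 to 75368579), desmin, the intermediate filament of muscle and mesangial cells, had 468, 442, 293 and 298 CPM in LCDD and 327, 211, 283 and 225 CPM in DH-LMP2A. DH-LMP2A replicate 1 lay above LCDD replicates 3 and 4, and the log2 fold change was 0.52 ± 0.19 (SE, edgeR adjusted p = 0.229). Fhl2, a LIM-domain partner of actin and integrins, and S1pr3, a receptor for sphingosine 1-phosphate, were not called by edgeR without the block and were called with it. DESeq2, the tubule covariate and leaving out DH-LMP2A replicate 1 also called both, and leaving out LCDD replicate 3 called Fhl2. For Fhl2 the difference was 0.80 ± 0.21 on the log2 scale (SE), with an edgeR adjusted p of 0.0784, and of 0.0185 with the block. S1pr3 had 0.84 ± 0.23 (SE, edgeR adjusted p = 0.0911, and 0.0241 with the block).

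The other mesangial genes gave no call in either fit. Vim, vimentin, was the member of this group with the lowest log2 fold change, -0.45 ± 0.22 (SE, edgeR adjusted p = 0.414). With the tubule covariate, Vim was called lower. Tbx2, a T-box transcription factor, and Mgp, matrix Gla protein, an inhibitor of calcification, had means that were nearly equal, at 101 and 101 CPM and at 79.5 and 80.0 CPM in LCDD and DH-LMP2A. Ednra, the endothelin A receptor, had 23.4 ± 3.82 CPM in LCDD and 25.1 ± 1.87 CPM in DH-LMP2A (SD, n = 4 each). Hopx, Igfbp5 and Thy1, a surface glycoprotein, had log2 fold changes of 0.47, 0.53 and 0.34.

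**Figure D3:**
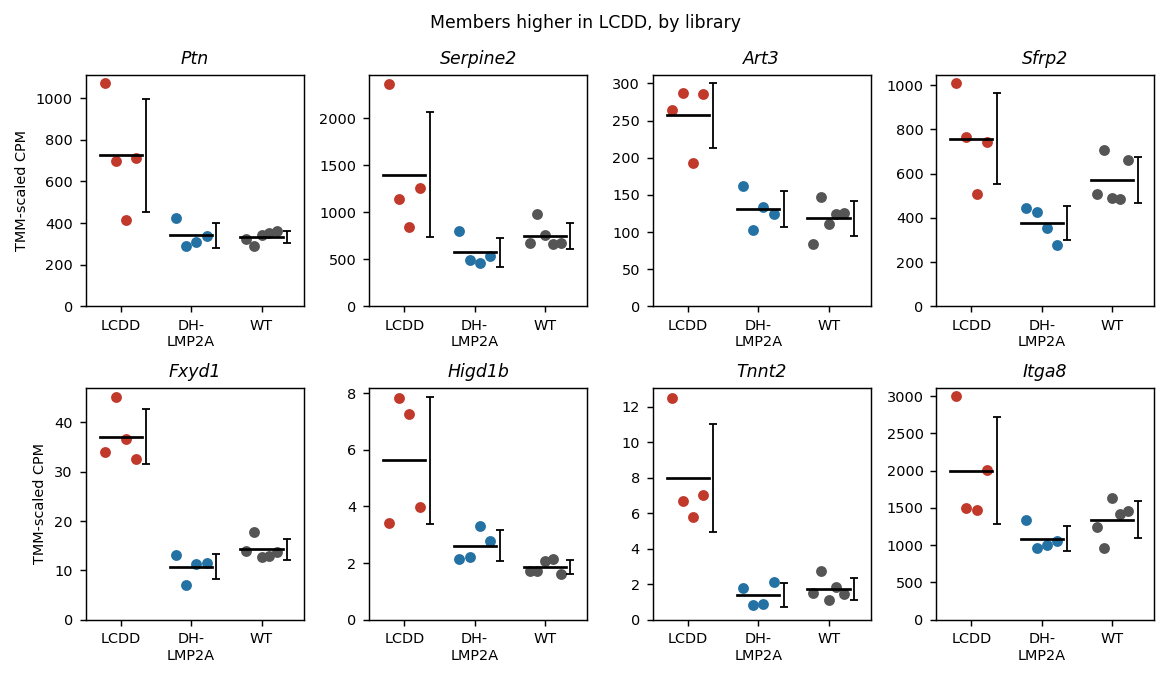
TMM-scaled CPM of 8 genes in each library, with the genotype mean (line) and SD (bar); n = 4 LCDD, 4 DH-LMP2A and 5 WT. Fxyd1 and Tnnt2 in LCDD lie above all 9 other libraries, whereas Sfrp2 and Itga8 in LCDD overlap WT.

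Of the pericyte genes, Fxyd1 (chromosome 7, 31051678 to 31057199), which encodes phospholemman, a regulator of the sodium pump, rose most clearly. LCDD libraries held 34.0, 45.1, 36.6 and 32.7 CPM and DH-LMP2A libraries 13.1, 7.04, 11.4 and 11.5 CPM. Every LCDD library stood far above every DH-LMP2A library. The log2 fold change was 1.78 ± 0.19 (SE, edgeR adjusted p = 0.00048), or 3.44-fold, and within title codes it ran from 1.36 to 2.67. The call held on leaving out each of the 8 libraries in turn, with log2 fold changes of 1.63 to 1.90.

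Higd1b (chromosome 11, 102835849 to 102838040), of a family of mitochondrial proteins and a marker of pericytes in other organs, was low throughout. It had 3.41, 7.83, 7.27 and 3.98 CPM in LCDD and 2.13, 2.22, 3.31 and 2.78 CPM in DH-LMP2A. The groups came close but did not overlap, and the log2 fold change of 1.11 ± 0.28 (SE) had an edgeR adjusted p of 0.0691, and of 0.0380 with the block. Without LCDD replicate 1 it was 1.29, with an edgeR adjusted p of 0.0421. DESeq2 and the tubule covariate also called Higd1b. Mcam, the adhesion molecule CD146, had 482 ± 101 CPM in LCDD and 274 ± 52.0 CPM in DH-LMP2A (SD, n = 4 each) with no overlap. It differed by 0.81 ± 0.21 on the log2 scale (SE), with an edgeR adjusted p of 0.0664, and of 0.0135 with the block. Mcam was also called by DESeq2, with the tubule or the Y-linked covariate, and on leaving out DH-LMP2A replicate 1.

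Rgs5 (chromosome 1, 169655501 to 169695813), a brake on G-protein signalling found in pericytes, arteriolar muscle and renin cells, lay in the opposite direction. It had 87.3, 168, 207 and 153 CPM in LCDD and 218, 434, 300.2 and 443 CPM in DH-LMP2A. All LCDD values were under all DH-LMP2A values, LCDD replicate 1 being the lowest. The log2 fold change was -1.18 ± 0.31 (SE, edgeR adjusted p = 0.0787), and -1.16 with the block (edgeR adjusted p = 0.0198). Leaving out DH-LMP2A replicate 1 gave -1.35, with an edgeR adjusted p of 0.0409. Rgs5 was also called lower by DESeq2 (DESeq2 adjusted p = 0.00925) and with the tubule covariate (edgeR adjusted p = 0.0215).

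Notch3 (chromosome 17, 32120820 to 32166880), the Notch receptor of mural cells, had 161, 217, 222 and 214 CPM in LCDD and 141, 279, 219 and 212 CPM in DH-LMP2A. The groups overlapped throughout, with a log2 ratio of -0.07 ± 0.26 (SE, edgeR adjusted p = 0.947). Cspg4, the pericyte proteoglycan NG2, had 164 ± 17.5 CPM in LCDD and 162 ± 10.9 CPM in DH-LMP2A (SD, n = 4 each). Kcnj8 and Abcc9, the pore and the regulatory subunit of a potassium channel sensitive to ATP, had log2 fold changes of -0.85 ± 0.32 and 0.19 ± 0.31 (SE), and neither was called. Ndufa4l2, a mitochondrial protein, had -0.08 ± 0.17 (SE).

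In the contractile group, Tnnt2 (chromosome 1, 135836354 to 135852260), troponin T of cardiac muscle, rose the most of all 39 members. Its level was low, 12.5, 6.70, 5.76 and 7.02 CPM in LCDD against 1.80, 0.815, 0.856 and 2.10 CPM in DH-LMP2A. These values rest on 325, 178, 107 and 178 counts in LCDD and 48, 22, 15 and 47 counts in DH-LMP2A. All LCDD libraries stood above all others, and LCDD replicate 1 was the highest. The log2 fold change was 2.51 ± 0.40 (SE, edgeR adjusted p = 0.00695), or 5.71-fold. It ran from 1.70 to 2.92 within title codes and from 2.21 to 2.78 on leaving out each of the 8 libraries in turn, and the call held each time.

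Cald1, Myl9, Mylk, Tpm1, Tpm2, Smtn and Kcnmb1 followed no single direction. Cald1, caldesmon, which binds actin and restrains myosin, had 1297, 912, 753 and 1097 CPM in LCDD and 575, 606, 611 and 752 CPM in DH-LMP2A. The lowest LCDD library just exceeded the highest DH-LMP2A library. Cald1 thus differed by 0.67 ± 0.18 on the log2 scale (SE), with an edgeR adjusted p of 0.0731, and of 0.0384 with the block. DESeq2, the tubule covariate and leaving out LCDD replicate 3 also called Cald1. Myl9 had 0.45 ± 0.20 (SE, edgeR adjusted p = 0.356). Mylk, the kinase that activates myosin light chain, had -0.06 ± 0.28 (SE), and the tropomyosins Tpm1 and Tpm2 had 0.11 ± 0.21 and 0.04 ± 0.16 (SE). Smtn, smoothelin, and Kcnmb1, the beta subunit of the large-conductance potassium channel, had -0.08 ± 0.16 and -0.12 ± 0.24 (SE).

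Among the contractile genes, Myh11, Acta2, Tagln, Cnn1, Lmod1 and Synpo2 had the lowest log2 fold changes, all under 0. This set was not fixed beforehand, so its direction is no result about arteriolar muscle as a whole. Smtn and Kcnmb1, also genes of differentiated smooth muscle, differed little. EdgeR called none of the lower genes without the block when all libraries and no covariate entered. With the tubule covariate Myh11 and Synpo2 were called lower, and DESeq2 called Synpo2 lower. Myh11 (chromosome 16, 14194527 to 14291408) had 22.1, 48.9, 127 and 44.3 CPM in LCDD and 70.6, 210.0, 143 and 174 CPM in DH-LMP2A. LCDD replicate 3 and DH-LMP2A replicate 1 produced the overlap, and LCDD was lower under 4 of 4 codes. The log2 fold change was -1.31 ± 0.48 (SE, edgeR adjusted p = 0.227), and -1.43 with the block (edgeR adjusted p = 0.0376). Without LCDD replicate 3 it was -1.96, with an edgeR adjusted p of 0.0330.

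Acta2 (chromosome 19, 34241090 to 34255336) had 50.1, 71.9, 110.0 and 55.9 CPM in LCDD and 72.3, 114, 126 and 157 CPM in DH-LMP2A. LCDD replicate 3 lay within the DH-LMP2A range, and the log2 fold change was -0.71 ± 0.28 (SE, edgeR adjusted p = 0.275, and 0.0751 with the block). Tagln (chromosome 9, 45929628 to 45936058), transgelin, an actin-binding protein of smooth muscle, had 45.9, 46.9, 61.9 and 39.8 CPM in LCDD and 35.5, 65.8, 65.3 and 105 CPM in DH-LMP2A. All LCDD values lay inside the DH-LMP2A range, with a log2 ratio of -0.48 ± 0.30 (SE, edgeR adjusted p = 0.557). Cnn1, Lmod1, leiomodin, which nucleates actin filaments, and Synpo2, an actin-bundling protein, had log2 fold changes of -1.07, -1.06 and -1.09, with edgeR adjusted p of 0.163 to 0.329.

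**Figure D4:**
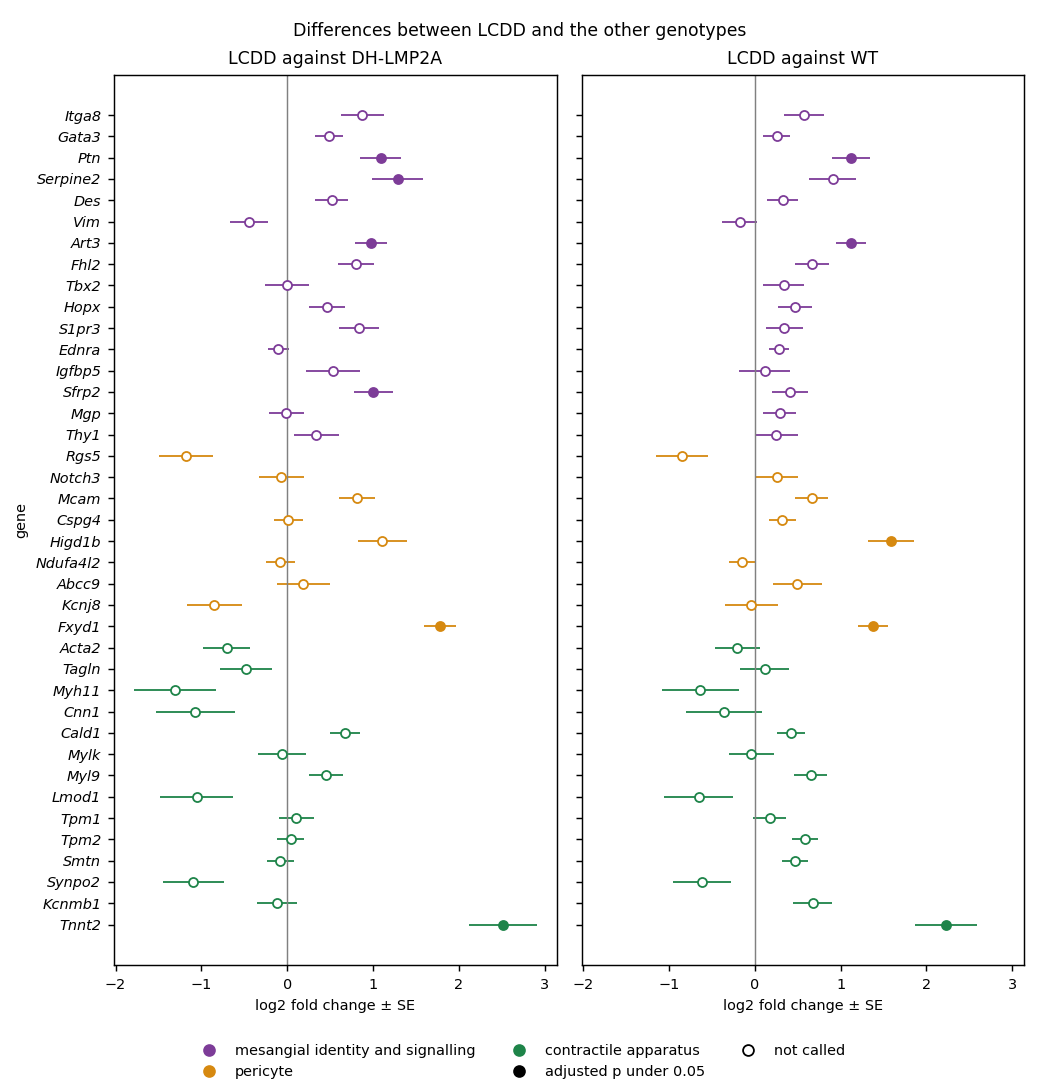
Log2 fold change ± SE of each tested gene for LCDD against DH-LMP2A (left) and against WT (right), coloured by role; filled points have an adjusted p under 0.05 and open points do not. Both panels share the LCDD libraries, and the filled points lie to the right of 0 in each.

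Renin, which is no member, was also lower on average in LCDD. Ren1 (chromosome 1, 133350510 to 133360325) had 90.7, 158, 137 and 27.6 CPM in LCDD and 381, 489, 204 and 435 CPM in DH-LMP2A. The groups did not overlap, and the log2 fold change was -1.87 ± 0.47 (SE, edgeR adjusted p = 0.0631, and 0.0296 with the block). DESeq2 and the tubule covariate also called Ren1 lower. Mice of 129 ancestry can carry a near-identical second renin gene, so the values of Ren1 are uncertain. The sum over 3 juxtaglomerular markers, Ren1, Akr1b7 and the member Rgs5, was 186 to 362 CPM in LCDD, 519 to 952 in DH-LMP2A and 385 to 594 in WT. Most of each sum was Ren1 and Rgs5, whose values are given above. Akr1b7 overlapped, with 12.1, 14.3, 18.5 and 6.11 CPM in LCDD and 34.9, 28.9, 14.7 and 20.1 CPM in DH-LMP2A. Pdgfrb, the PDGF receptor of mesangial cells and pericytes, did not separate the groups, with 672 ± 96.4 CPM in LCDD and 610.3 ± 112 CPM in DH-LMP2A (SD, n = 4 each; edgeR adjusted p = 0.831).

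**Figure D5:**
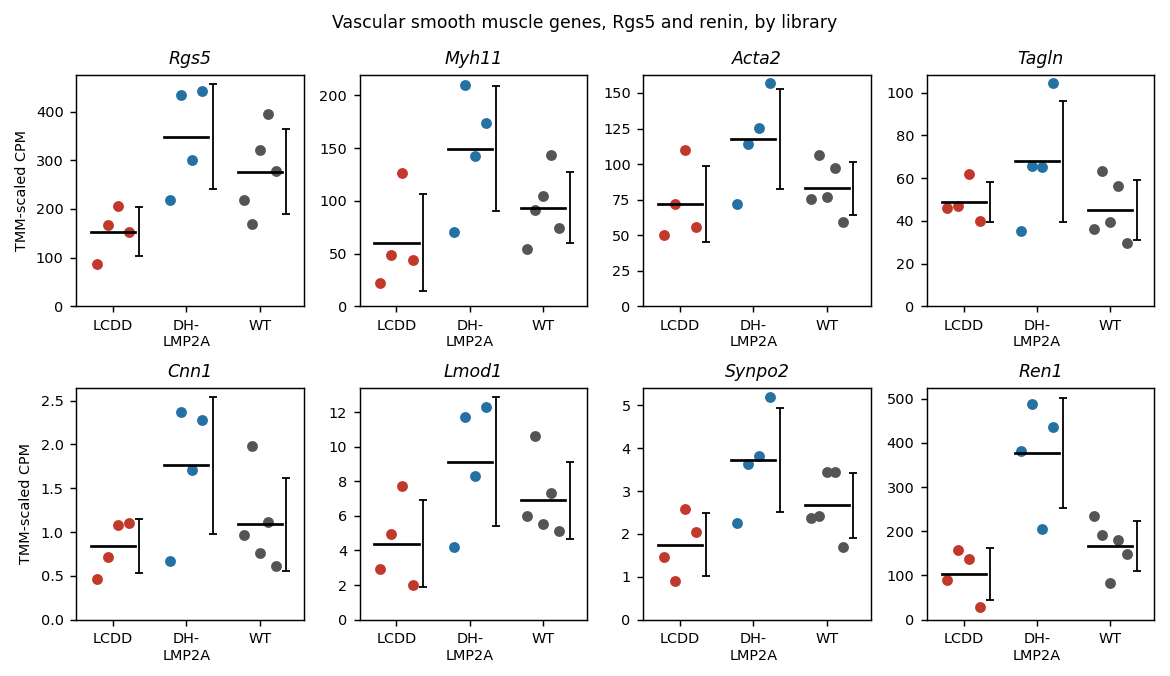
TMM-scaled CPM of Rgs5, Ren1 and the 6 contractile genes with the lowest log2 fold changes in LCDD against DH-LMP2A. Each library is shown, with the genotype mean (line) and SD (bar), for n = 4 LCDD, 4 DH-LMP2A and 5 WT. LCDD and DH-LMP2A do not overlap for Rgs5 and Ren1 and overlap for the other 6 genes.

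Other cell types differed between the same libraries. Summed podocyte markers ran from 7214 to 31518 CPM in LCDD and from 16522 to 32518 in DH-LMP2A, and all 10 had log2 fold changes under 0, with 0 of 10 called and 3 called lower with the block. Endothelial markers summed to 6906 to 14610 CPM in LCDD and 4760 to 11487 in DH-LMP2A. Macrophage markers summed to 360 to 649 and 216 to 422 CPM, and fibroblast markers, of which 2 of 9 were at or under the floor, to 1664 to 2224 and 1216 to 1755. Cell cycle genes summed to 88.7 to 181 CPM in LCDD and 33.0 to 37.3 in DH-LMP2A, with 7 of 12 called higher. The part of these differences in the members' values was not tested.

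LCDD was next compared with WT, which shares the LCDD libraries with the comparison above. The edgeR test called 5 of 39 members, against 1.84% of all genes tested. All 5 were higher in LCDD (Ptn, Art3, Higd1b, Fxyd1 and Tnnt2), against 1.30% of genes, and 0 were lower, against 0.544%. A total of 17 members had an unadjusted p under 0.05, against 2002 of all 16738 genes tested. With the block 9 were called higher, against 2.05% of genes, and 0 lower, against 1.15% (3.20% in either direction), the added members being Mcam, Myl9, Tpm2 and Smtn. The median log2 fold change was 0.34, 0.32 and 0.14 over the mesangial, pericyte and contractile genes, against 0.01 over all genes. Libraries did not overlap for 7 members, against 4.59% of genes. All 7 were higher in LCDD, against 2.97%, and 0 were lower, against 1.63%.

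Ptn had 322, 289, 343, 352 and 360 CPM in WT replicates 1 to 5. The WT libraries were tightly grouped and all lay under the lowest LCDD library. The log2 fold change was 1.12 ± 0.22 (SE, edgeR adjusted p = 0.0191). Art3 had 84.3, 148, 111, 124 and 126 CPM in WT, again with no overlap, and a log2 ratio of 1.12 ± 0.18 (SE, edgeR adjusted p = 0.00636). Serpine2, with 669, 977, 757, 666 and 672 CPM in WT, overlapped LCDD through WT replicate 2 and was not called (log2 fold change 0.91 ± 0.28, SE, edgeR adjusted p = 0.145). Sfrp2, with 509.9, 706, 489.5, 487 and 664 CPM in WT, overlapped LCDD as well (0.41 ± 0.21, SE, edgeR adjusted p = 0.506).

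Fxyd1 had 14.0, 17.8, 12.7, 13 and 13.7 CPM in WT, all well under the LCDD libraries, and a log2 ratio of 1.38 ± 0.17 (SE, edgeR adjusted p = 0.00157). Higd1b had 1.71, 1.73, 2.08, 2.15 and 1.62 CPM in WT, with no overlap and a log2 ratio of 1.59 ± 0.27 (SE, edgeR adjusted p = 0.00801). Tnnt2 had 1.52, 2.72, 1.08, 1.83 and 1.42 CPM in WT, from 47, 44, 27, 41 and 35 counts. Its log2 fold change was 2.23 ± 0.36 (SE, edgeR adjusted p = 0.00714), or 4.68-fold, with no overlap. Art3, Higd1b, Fxyd1 and Tnnt2 were called on leaving out each of the 9 libraries in turn. The call for Ptn ended without LCDD replicate 2 or WT replicate 3, 4 or 5, with edgeR adjusted p of 0.0506 to 0.0609.

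The calls against WT did not hold under other ways of handling the WT libraries, in which the SEs were wider. With the mean log2 CPM of the Y-linked genes as a covariate, 0 of the 5 members stayed under the threshold, with edgeR adjusted p of 0.225 to 0.525. Y-linked counts were few in every WT library, so this covariate overlaps with the genotype. Without the 3 single-mouse libraries, which leaves 2 WT libraries, 0 were called, with edgeR adjusted p of 0.134 to 0.289. With the covariate the log2 fold changes were 1.32 ± 0.41 for Ptn, 1.04 ± 0.30 for Art3, 1.79 ± 0.49 for Higd1b, 1.23 ± 0.30 for Fxyd1 and 1.49 ± 0.58 for Tnnt2 (SE). Without the single-mouse libraries they were 1.21 ± 0.35, 1.12 ± 0.28, 1.67 ± 0.41, 1.19 ± 0.26 and 1.89 ± 0.52 (SE) in the same order.

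The other identity and muscle genes were not called against WT by edgeR without the block when all libraries entered. Itga8 had 1242, 968, 1633, 1415 and 1460 CPM in WT, overlapping LCDD replicates 2 and 3, with a log2 ratio of 0.57 ± 0.23 (SE, edgeR adjusted p = 0.322). Rgs5 had 218, 170.0, 321, 396 and 278 CPM in WT and overlapped LCDD, with a log2 ratio of -0.85 ± 0.30 (SE, edgeR adjusted p = 0.220). Myh11 had 54.4, 91.6, 104, 144 and 74.2 CPM in WT, within the LCDD range but for 1 library, with -0.63 ± 0.45 (SE, edgeR adjusted p = 0.694). Gata3, Des, Notch3, Acta2 and Tagln had log2 fold changes of 0.25, 0.33, 0.26, -0.21 and 0.11. Tpm2 was higher with no overlap, 69.1 ± 8.23 CPM in LCDD (SD, n = 4) and 46.1 ± 9.16 in WT (SD, n = 5), with edgeR adjusted p = 0.0697, and 0.0346 with the block. DESeq2 also called Tpm2, and leaving out WT replicate 2 called Tpm2 and Mcam. With the block Mcam, Myl9 and Smtn had log2 fold changes of 0.69, 0.68 and 0.44 and were called.

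DH-LMP2A and WT, neither of which is the light chain genotype, were compared as the background of the design. The edgeR test called 0 of 39 members, against 0.627% of all genes tested (0.275% higher and 0.352% lower in DH-LMP2A). A total of 8 members had an unadjusted p under 0.05, against 2085 of all 16738 genes tested. DESeq2 called 2 members, Smtn and Kcnmb1, and 461 genes in all. With the block 3 were called, all higher in DH-LMP2A (Tpm2, Smtn and Kcnmb1), against 1.77% of genes higher, 1.58% lower and 3.36% in either direction. Libraries did not overlap for 4 members, against 4.97% of genes. Ednra, Kcnj8 and Kcnmb1 were higher in DH-LMP2A, against 2.64% of genes, and Sfrp2 was lower, against 2.33%. The median log2 fold change was -0.11, 0.31 and 0.49 over the mesangial, pericyte and contractile genes, against 0.00 over all genes, and it was above 0 for 12 of 14 contractile genes.

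Kcnmb1 had 6.10, 4.86, 6.95 and 9.31 CPM in LCDD, 6.29, 6.15, 7.94 and 9.18 in DH-LMP2A and 3.79, 5, 5.13, 4.43 and 3 in WT. The DH-LMP2A libraries all exceeded the WT libraries, by 0.79 ± 0.23 on the log2 scale (SE), with an edgeR adjusted p of 0.165, and of 0.0349 with the block. Smtn had 245 ± 34.9 CPM in DH-LMP2A (SD, n = 4) and 167 ± 26.1 in WT (SD, n = 5), a difference of 0.55 ± 0.15 on the log2 scale (SE), with an edgeR adjusted p of 0.146, and of 0.0283 with the block. Tpm2 had 0.54 ± 0.15 (SE, edgeR adjusted p = 0.145, and 0.0477 with the block). For Sfrp2, whose LCDD libraries were higher than those of DH-LMP2A, DH-LMP2A was itself lower than WT, by a log2 ratio of -0.60 ± 0.21 (SE, edgeR adjusted p = 0.268). Myh11 was 149 ± 59.3 CPM in DH-LMP2A (SD, n = 4) and 93.7 ± 33.8 in WT (SD, n = 5), and Acta2 was 117 ± 35.2 and 83.0 ± 18.6. Neither was called.

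A list of 45 further genes of contraction and mesangial biology, all tested, was examined beside the members. Against DH-LMP2A, 2 were called higher and 0 lower, where all genes gave 1.30% and 0.693%. With the block 9 were called higher and 2 lower, where all genes gave 3.24% and 2.86%. Against WT, 4 were called higher and 0 lower, beside 1.30% and 0.544% of all genes, and with the block 9 higher and 0 lower, beside 2.05% and 1.15%. DH-LMP2A against WT gave 0 calls with edgeR in both fits, with 8 of 45 at an unadjusted p under 0.05, against 2085 of all 16738 genes. The median log2 fold change over the list was 0.19 against DH-LMP2A and 0.14 against WT, where all genes gave -0.01 and 0.01.

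Ppp1r14a (chromosome 7, 29289320 to 29293390), the inhibitor of myosin phosphatase known as CPI-17, was called in both comparisons of LCDD. It had 8.13, 7.19, 5.87 and 6.31 CPM in LCDD, 2.99, 3.82, 3.94 and 2.78 in DH-LMP2A and 2.62, 3.27, 2.4, 2.06 and 1.87 in WT. Every LCDD library lay above all 9 others, and the log2 fold changes were 1.02 ± 0.22 (SE, edgeR adjusted p = 0.0313) and 1.49 ± 0.21 (SE, edgeR adjusted p = 0.00251). Myh10, non-muscle myosin heavy chain IIB, had log2 fold changes of 0.94 ± 0.20 and 0.83 ± 0.19 (SE, edgeR adjusted p = 0.0334 and 0.0435). In LCDD it had 450, 319, 211 and 429 CPM, and replicate 3 lay within the range of both other genotypes. Flna, the actin crosslinker filamin A, and Itga7, a laminin-binding integrin chain of muscle, were called against WT, with log2 fold changes of 0.83 and 0.70 (edgeR adjusted p = 0.0444 and 0.0239). Against DH-LMP2A, leaving out any 1 of the 8 libraries except LCDD replicate 3 ended the calls of Ppp1r14a and Myh10, with edgeR adjusted p of 0.0529 to 0.121. Against WT, the calls of Myh10, Flna and Itga7 ended on leaving out 8, 7 and 6 of the 9 libraries in turn, LCDD replicate 4 and WT replicates 3 to 5 among them, with edgeR adjusted p of 0.0565 to 0.143. All 4 calls against WT ended when the Y-linked level was a covariate and also when WT replicates 3 to 5 were dropped, with edgeR adjusted p of 0.141 to 0.721. With the covariate their log2 fold changes were 1.12 for Ppp1r14a, 0.93 for Myh10, 0.48 for Flna and 0.37 for Itga7.

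Of the 40 members, 13 share exon bases with another annotated gene. The strand setting of the counting is not given, so reads of such partners cannot be told apart from the member's. The largest shares were 412 of 1516 exon bases of Hopx with Hopxos, 714 of 4380 of Smtn with Gm11946 and 347 of 2153 of Sfrp2 with Gm26771. The total counts of these partners were 328, 66 and 31. Art3 shares 133 of its 3932 exon bases with Cxcl10. Tagln shares 65 of 1586 with Pcsk7, whose total count, 18694, exceeded that of Tagln, 15927. Acta2 and Actg2 belong to the actin family, whose coding sequences are close, so reads may be shared between them. Fxyd1, Tnnt2, Ptn, Serpine2 and Higd1b shared no exon bases with another gene.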

How the data were processed

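The authors deposited raw read counts for each gene in the format of featureCounts, per the file headers, beside the summed exon length of each gene (unit other, as deposited by the authors), which gave levels per kilobase. The submitters' processing notes name STAR 2.4.0a, Subread 1.5.0-p3, DESeq2 and mm10/GRCm38, without roles. The labels give stranded mRNA libraries read as pairs of 75 bases. The strand setting and annotation are not given in the sources used here.

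The test was edgeR 4.0.16 (R 4.3.3): filterByExpr with a minimum count of 10, TMM scaling, and 1 quasi-likelihood fit of all 13 libraries with 1 coefficient per genotype. Benjamini-Hochberg adjustment ran over 16738 genes, and a gene is called at an adjusted p under 0.05. SEs were obtained from the log2 fold change and the F statistic. Log2 CPM used a prior count of 2. At least 99.9% of each library's counts were kept. No count column was left over (0 further columns). Chi-square values per degree of freedom for the 22 pairs of libraries of 1 genotype ran from 12.6 to 233.9, so no pair looked like a library deposited again. The labels do not say that replicates came from separate litters, so p-values measure the spread between these samples.

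Genotypes come from the genotype label. The title code, whose meaning is not stated, was added as a block in an alternative fit. Within a code, deviations from the genotype mean correlated at 0.127 to 0.593 across genes in all 10 code and genotype pairs. Libraries of different codes were not compared in this way, so these values do not show that the code pairs libraries. WT has no library under the second code. Other alternatives were DESeq2 1.42.0, other filters and scaling, fits of only the genotypes compared, tubule and Y-linked covariates, leaving out the single-mouse WT libraries, and leaving out each library.

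Members and gene lists were chosen with earlier results of these data known. Values are given for members called in any comparison, for Itga8, Gata3, Des, Acta2, Tagln, Myh11, Rgs5 and Notch3 whatever their p, for Pdgfrb and Ren1, and for called genes of the list of 45; others by range or because the block or non-overlap singled them out. In simulated counts for 16540 genes with 200 changed, 46% of 2-fold and 89% of 4-fold changes were recovered for LCDD against DH-LMP2A with 9 false calls, and 62% and 92% for LCDD against WT with 4. These counts were drawn independently, with a spread set by a gene's level alone. They held no effect of title code, sex or cell composition, so the rates need not hold for the real libraries.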

Additional observations from a re-analysis of the deposited data

Results flagged for a closer look

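In 6 of 117 sets of log2 CPM values (39 genes in 3 genotypes), 1 library lay far from the others of its genotype by Dixon's criterion at the 95% level, where chance gives about 1 in 20, or 5.85. LCDD replicate 1 was low for Notch3 (7.33, the others 7.74 to 7.80) and for Smtn (7.45, the others 7.94 to 8.01), and high for Ednra (4.87, the others 4.42 to 4.44). LCDD replicate 2 was low for Vim (8.88, the others 9.28 to 9.36). WT replicate 2 was high for Mcam (8.76, the others 8.03 to 8.14), and WT replicate 1 was low for Mylk (9.47, the others 10.2 to 10.4).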

How the results depend on the processing

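Genes called in LCDD against DH-LMP2A numbered 334, and 811 with DESeq2, 158 with a mean of at least 5 CPM, 1021 with the replicate block, 930 with the tubule covariate, 213 from these genotypes alone and 113 to 484 on leaving out 1 library. Members called numbered 6, and under the same settings 14, 3, 14, 15, 3 and 2 to 10. The 2 were Fxyd1 and Tnnt2, and the 10 came without DH-LMP2A replicate 1. Against WT, 308 genes became 725 with DESeq2, 118 at 5 CPM, 536 with the block, 185 from these genotypes alone, 23 with the Y-linked covariate, 54 without single-mouse WT, 53 for the latter with the block (an alternative chosen after seeing the data) and 159 to 441 on leaving out 1 library. The 5 members became 3 at 5 CPM, 9 with the block, and 0 with the Y-linked covariate and in both fits without single-mouse WT. For DH-LMP2A against WT, 105 genes became 461 with DESeq2, 58 at 5 CPM, 562 with the block, 535 with the tubule covariate, 36 with the Y-linked covariate, 69 without single-mouse WT, 40 with the block there and 29 to 407 on leaving out 1 library. The 0 members became 2 with DESeq2, 3 with the block and 2 with the tubule covariate. At 5 CPM, Tnnt2 and Higd1b were not tested. The cause was not tested, except that fewer genes or samples entered some fits.

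Among the values of named genes under alternatives, 978 kept their direction and side of the threshold, 109 lost a call, 16 gained one and 22 changed sign, all of these for uncalled differences. Against DH-LMP2A, Notch3 was 0.035 with the Y-linked covariate and -0.22 to 0.095 on leaving out 1 library. Against WT, LCDD gave Pdgfrb 0.022 with the tubule covariate and -0.20 to 0.0051 on leaving out 1 library. Tagln was -0.48 with the Y-linked covariate, -0.063 without single-mouse WT, -0.14 with the block there and -0.024 to 0.23 on leaving out 1 library, and Notch3 was -0.19 with the Y-linked covariate. For DH-LMP2A against WT, the Y-linked covariate gave Itga8 0.013, Gata3 0.023, Acta2 -0.053, Tagln -0.099, Notch3 -0.22, Myh10 0.017 and Itga7 -0.031. Ptn was -0.10 with the tubule covariate and -0.093 to 0.11 on leaving out 1 library, and Itga8 was 0.064 with the block and without single-mouse WT. The block changed no calls of members other than those given with it in the text. Depth limits the precision of members at a few CPM, such as Cnn1, Synpo2, Higd1b, Thy1 and Tnnt2, and pools of 3 mice hide the spread between animals.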

Other observations

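Some members lie on the same stretch of a chromosome. Lmod1 (chromosome 1, 135324807 to 135368065) and Tnnt2 (chromosome 1, 135836354 to 135852260) lie on the same chromosome with Csrp1 (135720061 to 135752232) between them. Their log2 fold changes in LCDD against DH-LMP2A were -1.06 ± 0.42 (SE, edgeR adjusted p = 0.288) and 2.51 ± 0.40 (SE, edgeR adjusted p = 0.00695). Kcnj8 (chromosome 6, 142564837 to 142571614) and Abcc9 (chromosome 6, 142587862 to 142702315) encode the subunits of 1 channel. In LCDD, Kcnj8 had 1.30, 2.48, 2.32 and 4.26 CPM and Abcc9 had 16.9, 45.4, 31.7 and 61.0 CPM, both lowest in replicate 1 and highest in replicate 4. In DH-LMP2A they had 5.09, 4.78, 3.83 and 4.97 CPM and 29.1, 38.7, 33.5 and 34.6 CPM. The member Fxyd1 (chromosome 7, 31051678 to 31057199) lies on the same chromosome as Ppp1r14a (29289320 to 29293390), which is no member. Both were higher in every LCDD library than in any library of the other genotypes. Whether these differences are separate was not tested.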
